A study of Mus musculus with 6 samples.

Results

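A set of 9 genes of the corticosteroid response were followed in single-nucleus RNA sequencing of mouse left ventricle. They were taken by symbol, 1 row each among the 33696 genes of the deposited count matrices, so 9 of 33696 rows are described. They are the glucocorticoid-induced genes Fkbp5, Tsc22d3, Zbtb16 and Klf9, the receptors Nr3c1 (glucocorticoid receptor) and Nr3c2 (mineralocorticoid receptor), the enzyme Hsd11b1, and the kinases Sgk1 and Sgk3. All 9 were found in all 6 libraries.

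Glucocorticoids enter the cell, bind a cytoplasmic receptor held by the Hsp90 chaperone machinery, and send it to the nucleus, where it raises transcription of a common set of targets. Mineralocorticoid receptor binds the same hormones and aldosterone, and the enzyme 11β-hydroxysteroid dehydrogenase type 1, encoded by Hsd11b1, regenerates active hormone from its inactive form inside the cell. Serum- and glucocorticoid-regulated kinases are known for the control of ion channels and transporters, and Sgk1 is itself a receptor target.

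The samples were 6 libraries from left ventricles of male mice aged 12 weeks, in 3 groups of 2. WT-CD were wild-type littermates on control diet. R403Q-CD were heterozygous carriers of the myosin heavy chain mutation (Myh6+/R404Q, named R403Q), a model of hypertrophic cardiomyopathy, on the same diet. R403Q-EMPA were carriers fed that diet with the SGLT2 inhibitor empagliflozin at 0.15 mg per g of diet, about 15 mg per kg of body weight, begun at 9 to 10 weeks of age. Hearts for RNA sequencing were taken early in the treatment, and the full feeding period named in the submitters' protocol runs past this age. The mutation is a missense change, so RNA levels could not check the genotype labels. The labels do not say that each library came from a separate animal, so the p-values measure the spread between these libraries only.

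Libraries held 31787308 to 45397128 UMIs (unique molecular identifiers, each counting 1 captured transcript), and 6409 to 9514 nuclei per library were kept, with a median of 2663 to 4065 UMIs per nucleus. Pairs of libraries shared 23 to 56 barcodes. Clustering gave 23 clusters in 11 named classes, each called "-like" after its markers. The 10 tested classes were cardiomyocyte-like, fibroblast-like, endothelial-like, endocardial-like, lymphatic endothelial-like, pericyte-like, smooth muscle-like, epicardial-like, myeloid-like and lymphoid-like. Schwann-like nuclei numbered 61 and were not tested, and 41 nuclei of a hemoglobin-led cluster stayed unnamed. Levels are CPM (UMIs per 1000000 UMIs of a class in a library) after TMM scaling, unless the text says that they are unscaled. Values of the 6 libraries are given in the order WT-CD 1, WT-CD 2, R403Q-CD 1, R403Q-CD 2, R403Q-EMPA 1 and R403Q-EMPA 2.

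Promoter sequences were read first because the receptors act on DNA. Windows of 300 bases, from 250 before to 50 after a transcription start (RefSeq, mouse build GRCm38.p6), were held for 6 of the 9 members, 13 windows in all. Zbtb16, Nr3c1 and Sgk3 had none in the table used. A full palindromic receptor element, searched as AGAACA, any 3 bases and then TGTTCT, stood in 1 window, that of a start of Sgk1, beginning 189 bases upstream of that start. It is shown with capitals marking the element, on the plus strand at chr10:21993640-21993939.

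Sgk1: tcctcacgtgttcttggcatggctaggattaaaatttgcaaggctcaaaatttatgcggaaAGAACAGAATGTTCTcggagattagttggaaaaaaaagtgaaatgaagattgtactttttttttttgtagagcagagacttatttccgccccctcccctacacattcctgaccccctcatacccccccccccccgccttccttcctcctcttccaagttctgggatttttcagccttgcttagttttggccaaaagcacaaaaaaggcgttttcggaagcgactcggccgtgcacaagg

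Across all genes this element occurred in 3 of 32851 windows (0.00913%). The single site AGAACA, searched on both strands (TGTTCT on the other) and contained in the full element, was in 6233 windows (19.0%) and, of the members, in 4 windows of Sgk1 and Tsc22d3. The Tsc22d3 window at chrX:140600473-140600772 (minus strand) is shown with its single site in capitals, and the Fkbp5 window at chr17:28486100-28486399 (minus strand), which held neither, beside it. A match is a description of the letters, and no match says only that they are not in the window.

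Tsc22d3: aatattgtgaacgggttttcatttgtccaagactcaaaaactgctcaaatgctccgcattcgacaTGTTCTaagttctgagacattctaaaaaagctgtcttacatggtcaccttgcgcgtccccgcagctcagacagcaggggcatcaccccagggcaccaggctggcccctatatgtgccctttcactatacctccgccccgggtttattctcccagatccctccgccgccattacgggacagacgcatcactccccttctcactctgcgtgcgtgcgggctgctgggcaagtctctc

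Fkbp5: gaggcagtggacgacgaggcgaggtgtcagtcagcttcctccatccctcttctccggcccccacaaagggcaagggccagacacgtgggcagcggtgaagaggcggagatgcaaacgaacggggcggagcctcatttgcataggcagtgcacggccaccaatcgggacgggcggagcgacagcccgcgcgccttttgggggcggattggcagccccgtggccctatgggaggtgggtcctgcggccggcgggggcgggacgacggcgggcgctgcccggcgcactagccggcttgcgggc

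The class with the highest level differed between members, by unscaled CPM over the 6 libraries. Fkbp5, a co-chaperone of the receptor, was highest in myeloid-like nuclei (843 ± 350, SD, n = 6), then epicardial-like (621 ± 142) and fibroblast-like (615 ± 179), and lowest in smooth muscle-like (112 ± 48.4) and cardiomyocyte-like nuclei (126 ± 46.9). All neighbours in that order overlapped. Tsc22d3, whose protein GILZ mediates anti-inflammatory glucocorticoid action, was also highest in myeloid-like nuclei (432 ± 108), and its range overlapped that of fibroblast-like nuclei next in order. Zbtb16, a zinc finger repressor, was highest in cardiomyocyte-like nuclei (1838 ± 489), overlapping fibroblast-like (1768 ± 654) and endothelial-like nuclei (1648 ± 619), and was lowest in myeloid-like nuclei (434 ± 154). Klf9, a Krüppel-like factor, led in endocardial-like nuclei (442 ± 59.5) and was lowest in lymphoid-like nuclei (70.1 ± 16.2).

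Both receptors were read in every class. Nr3c2 was 1364 ± 155 in lymphatic endothelial-like nuclei and did not overlap the next class, cardiomyocyte-like nuclei at 664 ± 109. Nr3c1 was highest in lymphatic endothelial-like nuclei at 677 ± 89.7 and lowest in smooth muscle-like nuclei at 202 ± 78.4. Hsd11b1 was 312 ± 78.1 in fibroblast-like nuclei and 169.9 ± 50.0 in lymphoid-like nuclei, whose ranges overlapped, and 4.11 ± 2.36 in cardiomyocyte-like nuclei. Sgk1 was 124 ± 36.4 in endothelial-like nuclei and 2.03 ± 0.748 in cardiomyocyte-like nuclei, which did not overlap the next class. Sgk3, a kinase tied to endosomes, was 402 ± 81.8 in myeloid-like nuclei, above the lymphatic endothelial-like range (258 ± 70.4). Of all UMIs of a gene, fibroblast-like nuclei held 91.5% of those of Hsd11b1 and 50.0% of those of Fkbp5, endothelial-like nuclei held 65.8% of those of Sgk1, and cardiomyocyte-like nuclei held 45.1% of those of Nr3c2 and 38.6% of those of Zbtb16. Such shares also follow the UMIs of a class. Zbtb16 was 1838 CPM in cardiomyocyte-like nuclei beside 1588 over all nuclei, and Nr3c2 was 664 beside 476.

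**Figure D1:**
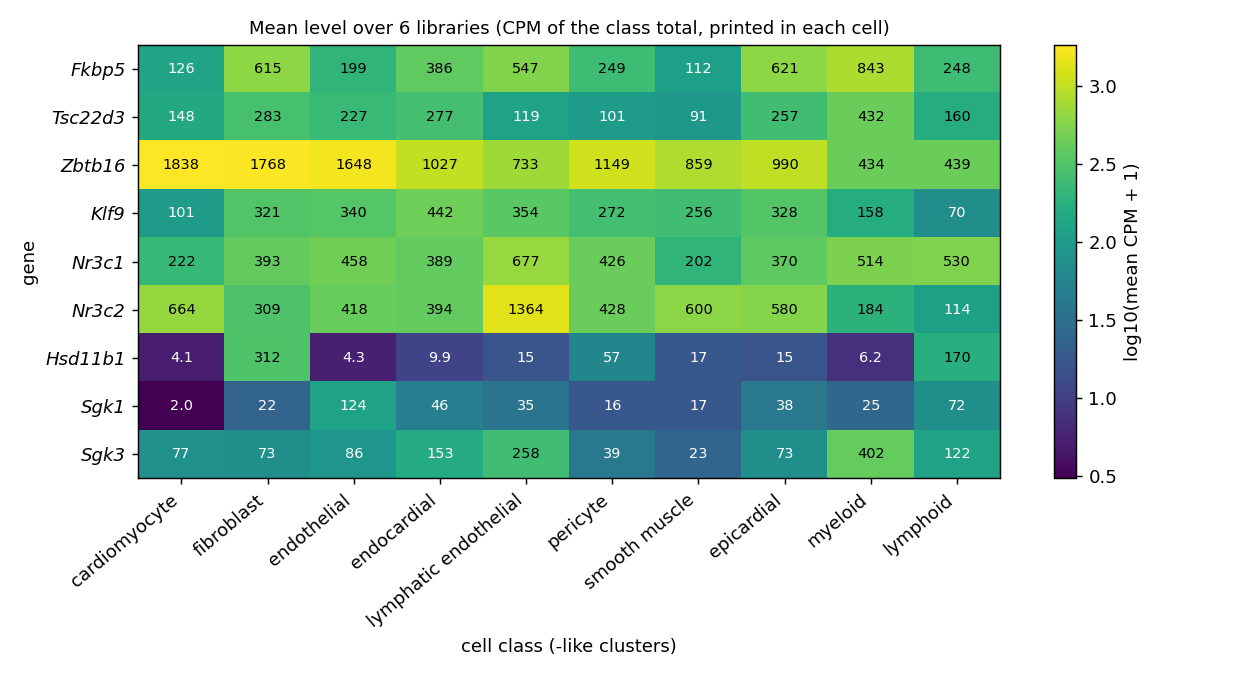
Mean CPM of each member (rows) in each of the tested classes (columns) over the 6 libraries, without TMM scaling, coloured on a log scale. Hsd11b1 stands at 312 in fibroblast-like and 4.11 in cardiomyocyte-like nuclei, and Nr3c2 is highest in lymphatic endothelial-like nuclei at 1364.

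The first comparison asked whether R403Q-CD hearts differed from WT-CD hearts. In the 85 tests of a member in a class, 0 passed an adjusted p of 0.05 in edgeR and 0 in DESeq2, 11 had an unadjusted edgeR p under 0.05, and the lowest adjusted p was 0.495. Over all genes and classes 0.013% of tests were called in edgeR, 0.119% in DESeq2, and 4.29% had an unadjusted p under 0.05. The other 5 pairs of member and class were left out by the low-count filter, of Sgk1 and Hsd11b1 in smooth muscle-like and epicardial-like nuclei and of Sgk3 in smooth muscle-like nuclei.

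Fkbp5 was the member with the lowest adjusted p. In cardiomyocyte-like nuclei its levels were 50.1, 107, 158, 151, 112 and 183 CPM. Both R403Q-CD libraries lay above both WT-CD libraries, and both R403Q-EMPA libraries did too. The log2 difference of R403Q-CD from WT-CD was 0.98 (SE 0.32, adjusted p = 0.495). In fibroblast-like nuclei Fkbp5 was 365, 787, 647, 864, 448 and 607 CPM, and the groups overlapped, since WT-CD 2 lay near the R403Q-CD libraries. Lymphatic endothelial-like nuclei had 231, 520.4, 678, 698, 505 and 753 CPM, with a log2 difference of 0.89 (SE 0.29, adjusted p = 1.00) for R403Q-CD against WT-CD. Pericyte-like nuclei had 126, 269.9, 272, 314, 278 and 248 CPM and epicardial-like nuclei 445, 641, 807, 832, 708 and 891. These 2 classes had log2 differences of 0.57 (SE 0.24) and 0.61 (SE 0.26). Over the classes Fkbp5 was higher in 9 of 10, which includes myeloid-like nuclei at 282, 871, 835, 1145, 696 and 1301 CPM, with a median log2 difference of 0.64 and a range of -0.015 to 0.98. Its libraries did not overlap, with R403Q-CD higher, in 5 of 10 classes and lower in 0, where over all tests 15.7% lay higher and 15.8% lower without overlap.

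Zbtb16 had the largest median difference of the members within the WT-CD pair and within the R403Q-EMPA pair. Its levels in cardiomyocyte-like nuclei were 964, 2278, 2354, 2101, 1411 and 2039.8 CPM. WT-CD 1 and R403Q-EMPA 1 were the low libraries, and each group's partner stood near the R403Q-CD pair. Fibroblast-like nuclei repeated this at 654, 2248, 2130.0, 2266, 1213 and 2189.6 CPM, and endothelial-like nuclei at 628, 1930.0, 2182, 2215, 1082 and 1976 CPM. In log2 terms WT-CD 2 exceeded WT-CD 1 in 10 of 10 classes (median 1.42, range 1.02 to 1.81) and R403Q-EMPA 2 exceeded R403Q-EMPA 1 in 10 of 10 (median 0.88, range 0.53 to 2.18). The R403Q-CD pair differed by a median of 0.05. Myeloid-like nuclei, at 189, 444, 554, 513, 327 and 612 CPM, and epicardial-like nuclei, at 501, 1171, 1038, 1686, 956 and 1544 CPM, had the same low libraries. Their differences of R403Q-CD from WT-CD were 0.74 (SE 0.32) in epicardial-like and 0.77 (SE 0.33) in myeloid-like nuclei, with no call.

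Fkbp5 and Tsc22d3 moved with the same libraries. WT-CD 2 exceeded WT-CD 1 for Fkbp5 in 10 of 10 classes (median log2 difference 1.23), and R403Q-EMPA 2 exceeded R403Q-EMPA 1 in 9 of 10 (median 0.54). Tsc22d3 in myeloid-like nuclei was 253, 494, 423, 511, 379.9 and 567 CPM, with WT-CD 1 lowest. For Tsc22d3 the counts were 9 of 10 for each pair, with medians of 0.50 and 0.39. R403Q-CD 2 exceeded R403Q-CD 1 in 8 of 10 classes for either gene, by smaller medians of 0.24 for Fkbp5 and 0.19 for Tsc22d3. Because these are classes of the same libraries, they are not separate replicates. Leaving out WT-CD 2 enlarged the Fkbp5 differences from WT-CD. They were then 1.57 in cardiomyocyte-like nuclei for R403Q-EMPA and 1.21 in pericyte-like nuclei for R403Q-CD. Leaving out WT-CD 1, the low library, made them smaller. The Fkbp5 difference in cardiomyocyte-like nuclei was then 0.54 for R403Q-CD and 0.47 for R403Q-EMPA, and 0.12 in pericyte-like nuclei for R403Q-CD. Zbtb16 for R403Q-CD was then 0.23 in epicardial-like and 0.26 in myeloid-like nuclei. Either way the WT-CD arm is 1 library, assumed to vary like the others.

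**Figure D2:**
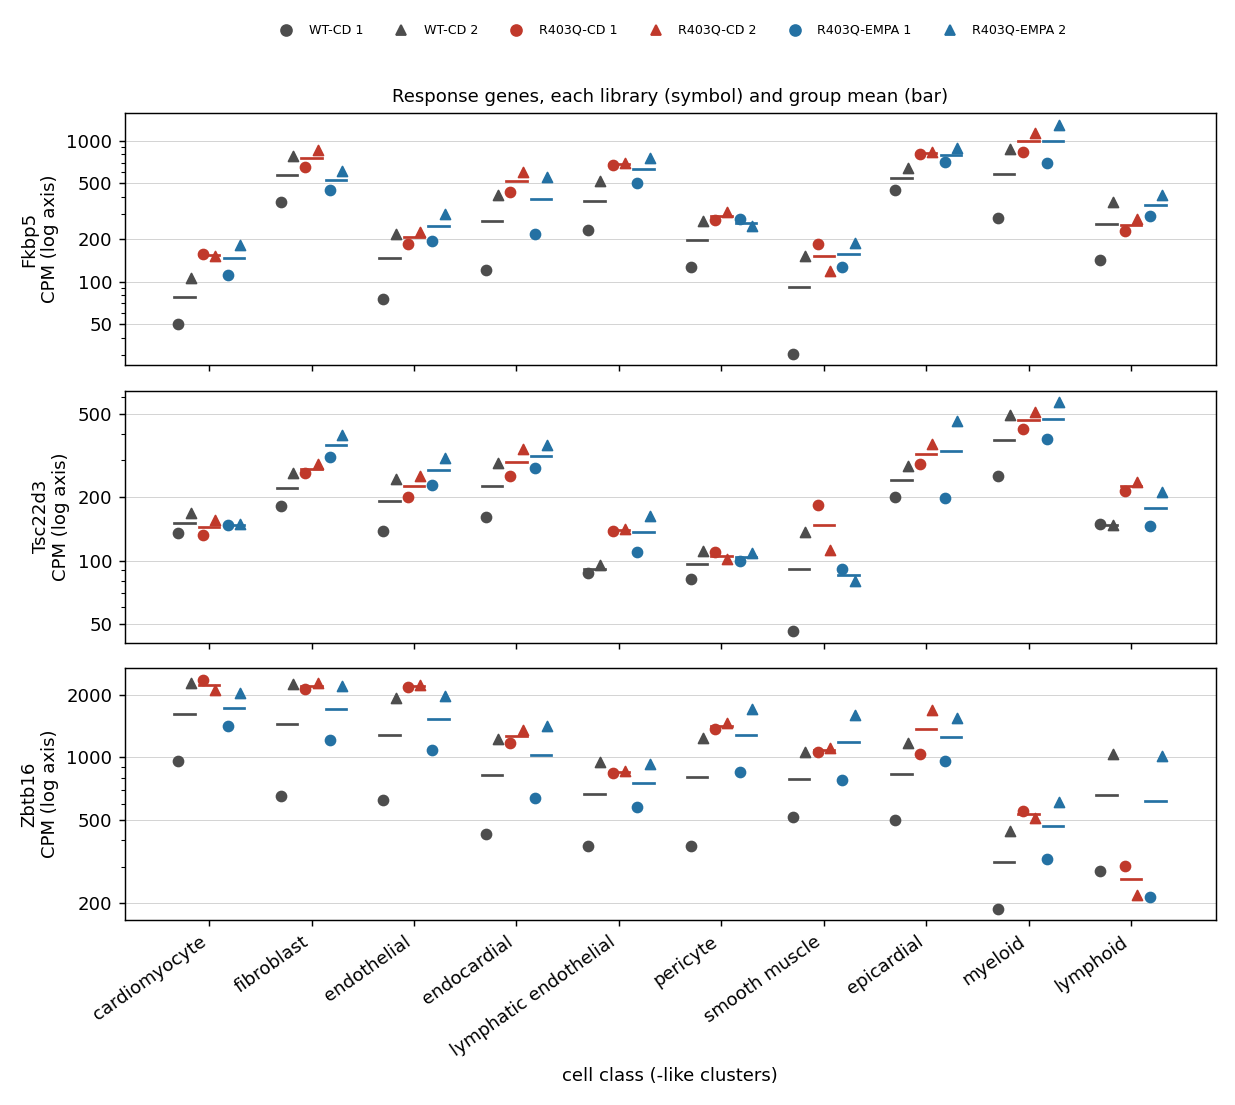
Level of Fkbp5, Tsc22d3 and Zbtb16 (TMM-scaled CPM, log axis) in each library by class, with symbols for libraries, colours for groups and bars for group means. Zbtb16 in cardiomyocyte-like nuclei runs from 964 in WT-CD 1 to 2354 in R403Q-CD 1, and WT-CD 1 is the lowest library of the 6 there.

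Other members differed in single classes between R403Q-CD and WT-CD. Tsc22d3 in lymphatic endothelial-like nuclei was 87.0, 94.9, 139, 142, 110.1 and 163 CPM, with both R403Q-CD libraries above both WT-CD libraries (0.63, SE 0.24). Sgk1 in endothelial-like nuclei was 90.0, 83.2, 124, 135, 182 and 134 CPM, so that R403Q-CD also lay above WT-CD (0.58, SE 0.16). Sgk3 in lymphatic endothelial-like nuclei was 234, 323, 188, 179.7, 331 and 339 CPM, with R403Q-CD below WT-CD (-0.59, SE 0.21). Nr3c2 in lymphoid-like nuclei was 155, 135, 50.1, 92.5, 146 and 211 CPM (-1.02, SE 0.40). The 12 cardiomyocyte markers, none at 0, summed in those lymphoid-like nuclei to 6310.0, 6368, 3729, 5129, 7489 and 23461 CPM, against 58280.0 to 81804 in cardiomyocyte-like nuclei, a class with more Nr3c2. Like Nr3c2 they were lowest in the R403Q-CD libraries and highest in R403Q-EMPA 2, and their part in the Nr3c2 values was not tested. Hsd11b1 in endothelial-like nuclei was 8.40, 4.90, 2.69, 2.84, 1.89 and 4.91 CPM (-1.23, SE 0.47). Fibroblast markers summed in those endothelial-like nuclei were 937 CPM in WT-CD 1 and 435 to 488 in the other 5 libraries, and their part in the Hsd11b1 values was not tested. None of these passed the adjusted threshold.

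The second comparison asked what empagliflozin changed in mutant hearts, and the third set R403Q-EMPA against WT-CD. The 2 share the R403Q-EMPA libraries, so each is given by its own values. For R403Q-EMPA against R403Q-CD 0 of 85 tests were called in edgeR and 4 in DESeq2, and 17 had an unadjusted edgeR p under 0.05. Over all genes 0.328% of tests were called in edgeR, 0.936% in DESeq2, and 9.71% had an unadjusted p under 0.05. For R403Q-EMPA against WT-CD 1 of 85 was called in edgeR and 5 in DESeq2, and 22 had an unadjusted p under 0.05, where over all genes these shares were 1.39%, 2.05% and 12.7%.

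Nr3c2, the mineralocorticoid receptor, was lower in R403Q-EMPA than in R403Q-CD in 9 of 10 classes. The libraries did not overlap in those 9, where over all genes and classes 22.2% of tests had R403Q-EMPA libraries that lay lower without overlap. In cardiomyocyte-like nuclei the levels were 687, 719, 804, 753, 499 and 542 CPM. The 2 R403Q-EMPA libraries were the lowest of the 6. The difference from R403Q-CD was -0.58 (SE 0.17, edgeR adjusted p = 0.206, DESeq2 adjusted p = 0.0316). Endothelial-like nuclei had 426, 505, 445, 529.9, 299.9 and 312 CPM, again with R403Q-EMPA below all others, and a difference of -0.67 (SE 0.15, adjusted p = 0.163) from R403Q-CD and -0.61 (SE 0.15, adjusted p = 0.135) from WT-CD, with DESeq2 adjusted p of 0.0290 and 0.0467. In fibroblast-like nuclei the levels were 284, 353, 351, 377, 229.7 and 268 CPM, and the difference from R403Q-CD was -0.55 (SE 0.16, adjusted p = 0.198). Pericyte-like nuclei had 417, 521, 449, 562, 292 and 353 CPM, and the difference was -0.65 (SE 0.17, adjusted p = 0.127). Without WT-CD 1 or WT-CD 2 the differences from R403Q-CD were called in endothelial-like (adjusted p = 0.0261 and 0.0285) and pericyte-like nuclei (adjusted p = 0.00766 and 0.00877), and not without any one of the 4 libraries compared.

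In the smaller classes the same direction was seen with one exception. Differences of R403Q-EMPA from R403Q-CD were -0.41 (SE 0.17) in endocardial-like, -0.59 (SE 0.27) in epicardial-like and -0.46 (SE 0.17) in myeloid-like nuclei. Lymphoid-like nuclei had 1.30 (SE 0.41) in the other direction, on 55 to 108 nuclei per library, and the cardiomyocyte markers given above for that class moved with it. With no mitochondrial limit, and nuclei called for doublets and clustered again, it was -0.067. Lymphatic endothelial-like nuclei, where Nr3c2 was highest, had 1138, 1658, 1531, 1421, 1382 and 1299 CPM, and smooth muscle-like nuclei had 647, 932, 669.8, 941, 499.7 and 587 CPM. Summed over all nuclei of a library, where a change in the number of nuclei of a class and in RNA per nucleus cannot be told apart, Nr3c2 was 434, 499, 521, 556, 395 and 456 CPM. Against WT-CD the difference was -0.43 (SE 0.17) in cardiomyocyte-like, -0.36 (SE 0.16) in fibroblast-like, -0.37 (SE 0.17) in endocardial-like, -0.54 (SE 0.17) in pericyte-like and -0.46 (SE 0.17) in myeloid-like nuclei. The libraries did not overlap in 8 of 10 classes, against 20.3% of all tests.

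To see whether the class held a mixture, Nr3c2 was also tested within each cluster of the cardiomyocyte-like, fibroblast-like and endothelial-like classes, an alternative chosen after seeing the data. It was lower in R403Q-EMPA than in R403Q-CD in all 12 clusters tested. In endothelial-like cluster 8 the differences were -0.77 from R403Q-CD (adjusted p = 0.0431) and -0.88 from WT-CD (adjusted p = 0.0186). Cluster 8 is 1 of these 12 and held 86, 189, 266, 242, 855 and 170 nuclei. The share of all genes called in it is not given. No nucleus had fewer than 500 UMIs, so none was left out when each was thinned to 500. The share of cardiomyocyte-like nuclei with an Nr3c2 UMI was then 27.8%, 25.4%, 30.3%, 29.1%, 21.6% and 22.5%. R403Q-EMPA libraries lay below all others, though an exact permutation test of 2 against 2 libraries cannot go below 0.333. Without thinning the shares were 93.1%, 91.4%, 87.8%, 83.2%, 80.5% and 85.6%, and R403Q-EMPA 2 was not below R403Q-CD 2.

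Sgk3 was higher in R403Q-EMPA than in R403Q-CD in 9 of 9 classes, and the libraries did not overlap in 6, against 22.4% of all tests. In endocardial-like nuclei the levels were 119, 117, 117, 124, 269 and 179 CPM. Both R403Q-EMPA libraries lay above the 4 others, and R403Q-EMPA 1 was the higher. Sgk3 rose by 0.93 (SE 0.19) against WT-CD with an edgeR adjusted p of 0.0348, the only call among the members per class, and in that class and comparison 2.14% of genes were called. Against R403Q-CD the difference was 0.90 (SE 0.19, adjusted p = 0.0585). The call rested on R403Q-EMPA 1, without which the difference from WT-CD was 0.60 (adjusted p = 0.338). It was also lost without WT-CD 2 (0.93, adjusted p = 0.0583), R403Q-CD 1 (0.93, adjusted p = 0.0579) or R403Q-CD 2 (0.93, adjusted p = 0.0614) and with only the 4 libraries compared (0.94, adjusted p = 0.0701), and DESeq2 gave an adjusted p of 0.0138.

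The 8 endocardial markers of those nuclei, matched by symbol to 9 rows of which 1 was at 0, summed to 14380.1, 16627, 16551, 14815, 10089.6 and 11557 CPM. They were lowest in the 2 R403Q-EMPA libraries, where Sgk3 was highest. Lymphatic endothelial-like and myeloid-like nuclei are classes with more Sgk3, and in endocardial-like nuclei the summed 7 lymphatic markers were 187, 93.0, 123, 109.5, 261 and 121 CPM and the summed 8 myeloid markers 61.7, 23.4, 51.8, 45.9, 54.1 and 44.9 CPM, with no gene of these 2 lists at 0. Lymphatic markers were highest in R403Q-EMPA 1, the library with the most Sgk3, but were 121 in R403Q-EMPA 2, and myeloid markers were highest in WT-CD 1. The part of the endocardial and lymphatic markers in the Sgk3 values was not tested.

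Elsewhere Sgk3 against R403Q-CD was 0.87 (SE 0.21, adjusted p = 0.347) in lymphatic endothelial-like nuclei and 0.51 (SE 0.15) in myeloid-like nuclei, which had 388, 351, 355, 344, 523 and 472 CPM. In endothelial-like nuclei it was 57.5, 79.8, 75.5, 77.8, 133 and 93.9 CPM, with differences of 0.58 (SE 0.20) from R403Q-CD and 0.73 (SE 0.20, adjusted p = 0.172) from WT-CD. In pericyte-like nuclei it was 36.5, 34.5, 34.9, 34.5, 46.6 and 47.8 CPM (0.44, SE 0.20 against R403Q-CD). The myeloid-like difference from WT-CD was 0.43 (SE 0.15). Against WT-CD the libraries did not overlap, with R403Q-EMPA higher, in 6 of 9 classes, where 19.8% of all tests did so.

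**Figure D3:**
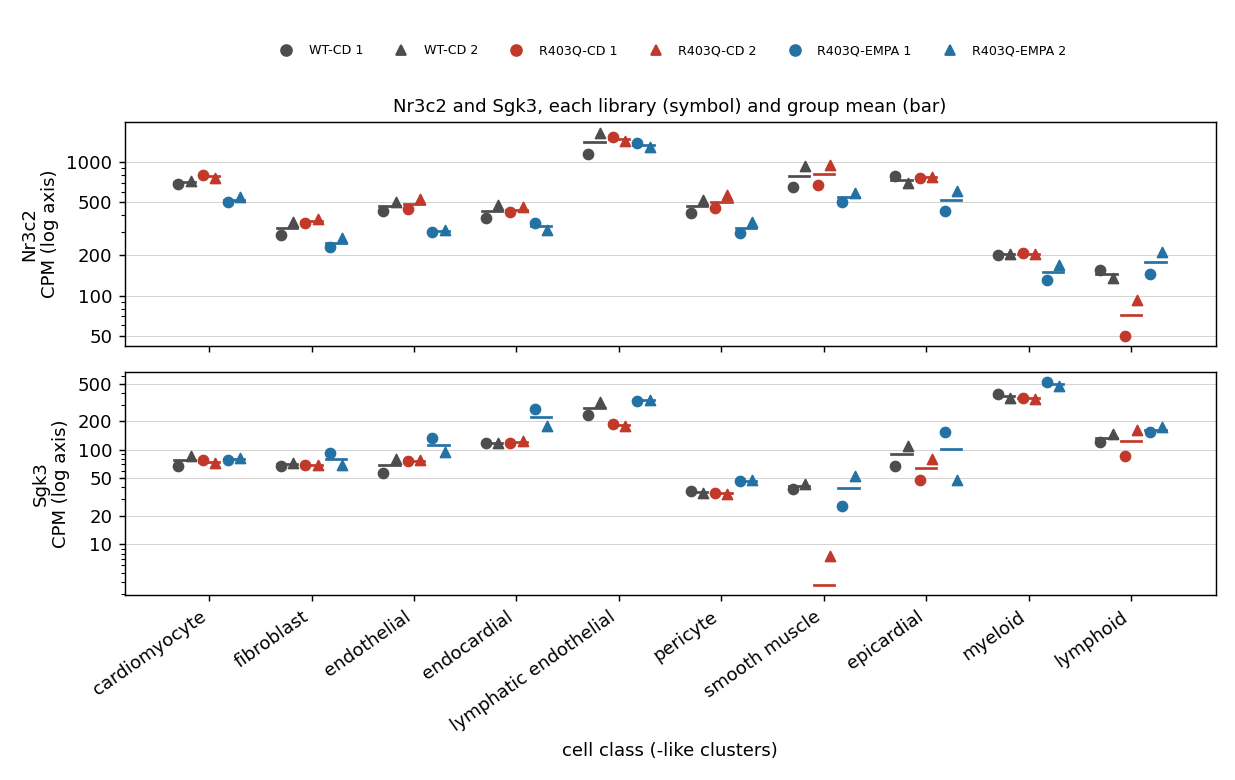
Level of Nr3c2 and Sgk3 (TMM-scaled CPM, log axis) in each library by class, coloured by group, with bars for group means. R403Q-CD 1 had no Sgk3 UMI in smooth muscle-like nuclei and is not drawn there. Nr3c2 in cardiomyocyte-like nuclei sits at 499 and 542 in R403Q-EMPA against 687 to 804 in the other libraries, and Sgk3 in endocardial-like nuclei sits at 269 and 179 against 117 to 124.

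Sgk1 was read mainly in endothelial-like nuclei. Its levels there, given above, were 182 and 134 CPM in R403Q-EMPA and 90.0 and 83.2 in WT-CD, and the difference was 0.88 (SE 0.16, edgeR adjusted p = 0.0554, DESeq2 adjusted p = 0.00291). These groups did not overlap, and the R403Q-CD libraries, at 124 and 135, reached the level of R403Q-EMPA 2. It was called without R403Q-EMPA 2 (1.06, adjusted p = 0.0333) or WT-CD 1 (0.93, adjusted p = 0.0296), with doublets kept (0.90, adjusted p = 0.0445) and with no filter on low counts (0.88, adjusted p = 3.2e-05), and not without R403Q-EMPA 1 (0.62, adjusted p = 0.413). In myeloid-like nuclei Sgk1 was 19.2, 22.4, 16.8, 24.4, 38.1 and 27.6 CPM (0.73, SE 0.31 against R403Q-CD; 0.72, SE 0.31 against WT-CD).

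The endothelial-like clusters differed in Sgk1 and in size. Cluster 8 had 228, 162, 208, 209.6, 311 and 234 CPM and cluster 9 had 59.6, 51.3, 67.4, 79.6, 99.5 and 93.9 CPM. Cluster 8 held 855 of the 2877 endothelial-like nuclei of R403Q-EMPA 1 and 86 to 266 in each other library, so the class total was drawn from clusters in other proportions. Within clusters 7, 8, 9 and 19 the difference from WT-CD was 0.60 (adjusted p = 0.102), 0.57 (adjusted p = 0.248), 0.82 (adjusted p = 0.0815) and 0.16 (adjusted p = 1.00). The share of endothelial-like nuclei with an Sgk1 UMI at 500 UMIs was 4.47%, 3.83%, 6.28%, 6.00%, 8.76% and 5.97%, where cardiomyocyte-like nuclei had at most 0.258%. Without thinning it was 18.4%, 20.3%, 25.4%, 31.0%, 36.3% and 22.8%.

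Hsd11b1, the hormone-regenerating enzyme, was lower in R403Q-EMPA fibroblast-like nuclei. Its levels were 362, 381, 343, 368, 173 and 254 CPM. R403Q-EMPA lay below the 4 others. The difference was -0.74 (SE 0.18, edgeR adjusted p = 0.143, DESeq2 adjusted p = 0.0180) from R403Q-CD and -0.80 (SE 0.18, edgeR adjusted p = 0.0812, DESeq2 adjusted p = 0.00512) from WT-CD. Summed over all nuclei it was 133, 128, 105, 103, 39.6 and 63.7 CPM. There R403Q-EMPA fell by 1.34 on the log2 scale from WT-CD (SE 0.21, edgeR adjusted p = 0.0209), where 4.6% of genes were called, and differed by -1.01 from R403Q-CD (SE 0.21, adjusted p = 0.113). The call against WT-CD was lost without WT-CD 1 (-1.31, adjusted p = 0.0590) or WT-CD 2 (-1.37, adjusted p = 0.0626).

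Fibroblast-like nuclei, which hold most of its UMIs, numbered 3682, 2580, 2382, 1978, 1659 and 1863, and the part of their number in the sum over all nuclei was not tested. Within the class the clusters also differed, since Hsd11b1 was 518, 529.7, 458, 540.0, 436 and 444 CPM in cluster 5, and 60.0, 67.7, 111, 80.1, 53.0 and 36.4 CPM in cluster 3. Cluster 5 held 1291, 933, 865, 655, 232 and 565 nuclei and cluster 3 held 119, 84, 59, 89, 557 and 136. Hsd11b1 is among the 10 leading genes of cluster 5, so its level there is partly set by the clustering. Within clusters 1, 2, 3, 5 and 6 the difference of R403Q-EMPA from WT-CD was -1.05, -0.33, -0.46, -0.28 and -0.60, with adjusted p from 0.101 to 0.756. For the class as a whole the difference from WT-CD was -1.10 (adjusted p = 0.0214) without R403Q-EMPA 2 and -0.55 (adjusted p = 0.449) without R403Q-EMPA 1.

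**Figure D4:**
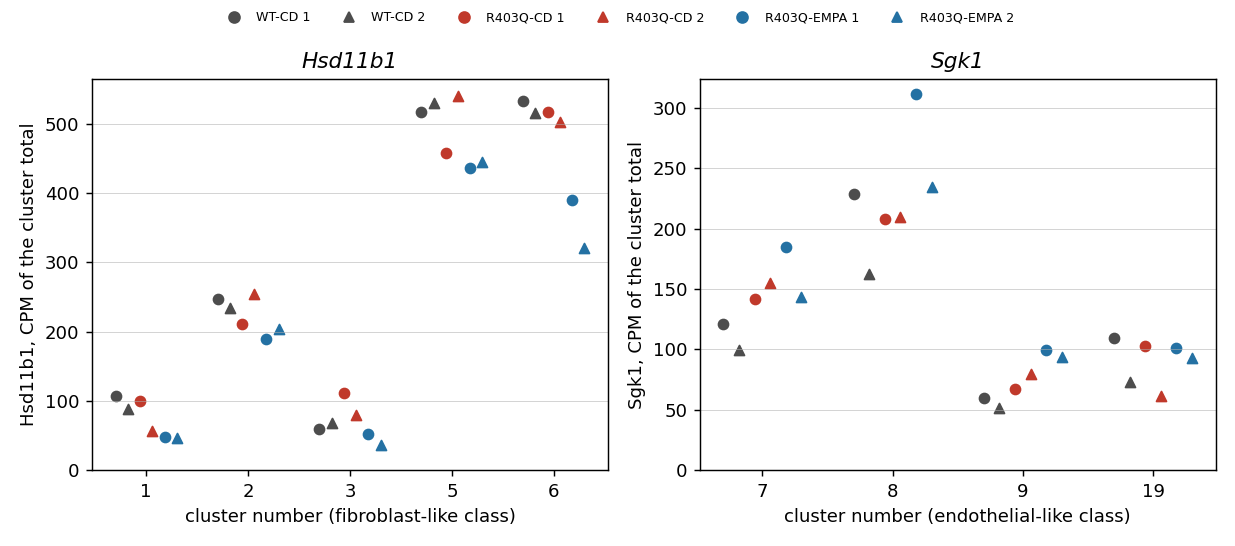
Hsd11b1 in fibroblast-like clusters 1, 2, 3, 5 and 6 and Sgk1 in endothelial-like clusters 7, 8, 9 and 19, as CPM of each cluster per library, coloured by group. Hsd11b1 in cluster 6 runs from 533 in WT-CD 1 to 320.2 in R403Q-EMPA 2, and Sgk1 is highest in cluster 8 at 162 to 311.

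Outside fibroblast-like nuclei Hsd11b1 was low in most classes. In pericyte-like nuclei it was 58.9, 56.9, 53.2, 58.6, 80.7 and 35.6 CPM, with overlapping groups. It was 8.30, 3.40, 3.56, 3.86, 1.80 and 3.62 CPM in cardiomyocyte-like nuclei, where R403Q-EMPA differed from WT-CD by -1.14 (SE 0.46), and by -1.16 (SE 0.50) in endothelial-like and -1.30 (SE 0.44) in endocardial-like nuclei. Fibroblast markers summed in the cardiomyocyte-like nuclei were 1431, 1625, 1286, 1183, 1171 and 982 CPM, lowest in the 2 R403Q-EMPA libraries, and in the endocardial-like nuclei 2018, 943, 1030.4, 1036, 1075 and 1108 CPM, highest in WT-CD 1. Their part in these Hsd11b1 values was not tested. Lymphoid-like nuclei had 197, 252, 214, 256, 146 and 110.2 CPM, lower in R403Q-EMPA (-0.86, SE 0.33 from R403Q-CD; -0.79, SE 0.33 from WT-CD). Fibroblast markers summed in those lymphoid-like nuclei were 2528, 3967, 893, 1740, 402.9 and 1672 CPM, and their part in it was not tested. The thinned share of fibroblast-like nuclei with an Hsd11b1 UMI was 16.6%, 16.6%, 14.4%, 16.9%, 8.74% and 11.4%, against 0.412% or less in cardiomyocyte-like nuclei. Without thinning it was 52.0%, 56.9%, 53.2%, 60.4%, 34.5% and 37.9%, and R403Q-EMPA was below all others either way.

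Nr3c1 and Klf9 had 1 test each with an unadjusted p under 0.05 over the 3 comparisons. Nr3c1 in myeloid-like nuclei was 629.8, 529, 546, 532, 417 and 469 CPM and differed from WT-CD by -0.39 (SE 0.16) in R403Q-EMPA. In cardiomyocyte-like nuclei it was 238, 252, 216, 218, 243 and 167 CPM, with R403Q-EMPA 2 lowest and overlapping groups. Nr3c1 was lower than WT-CD in R403Q-EMPA in 9 of 10 classes, without a call. Klf9 in smooth muscle-like nuclei was 347, 318, 450.4, 321, 252 and 133 CPM (-0.87, SE 0.35 for R403Q-EMPA against R403Q-CD), on 31 to 58 nuclei per library. In fibroblast-like nuclei Klf9 was 327, 343, 288, 316, 297 and 356 CPM, with overlapping groups.

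For R403Q-EMPA against WT-CD, Fkbp5 and Tsc22d3 had unadjusted p under 0.05 in 5 tests, with no edgeR call. Fkbp5 in cardiomyocyte-like nuclei differed by 0.91 (SE 0.32, adjusted p = 0.160), in lymphatic endothelial-like by 0.74 (SE 0.29) and in epicardial-like by 0.56 (SE 0.26). Tsc22d3 in fibroblast-like nuclei was 182, 262, 260.5, 288, 311 and 398 CPM, with both R403Q-EMPA libraries above the others (0.67, SE 0.20, edgeR adjusted p = 0.162, DESeq2 adjusted p = 0.0482). In lymphatic endothelial-like nuclei its difference was 0.54 (SE 0.25).

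Whether the difference from WT-CD itself differed between cell classes was tested in limma on the paired class values of each library. For R403Q-EMPA against WT-CD, cardiomyocyte-like minus fibroblast-like nuclei gave 1.01 for Fkbp5 (SE 0.17, adjusted p = 0.0295) and -0.71 for Tsc22d3 (SE 0.14, adjusted p = 0.0448), where 2.25% of genes were called. For Fkbp5, cardiomyocyte-like minus endothelial-like nuclei gave 0.046 (adjusted p = 0.929) and fibroblast-like minus endothelial-like nuclei -0.96 (adjusted p = 0.0594). Fkbp5 differed from WT-CD by 0.91 in cardiomyocyte-like nuclei, while in fibroblast-like nuclei the R403Q-EMPA libraries, at 448 and 607 CPM, lay between the WT-CD libraries at 365 and 787. Tsc22d3 differed by 0.67 in fibroblast-like nuclei, while in cardiomyocyte-like nuclei R403Q-EMPA, at 147 and 149 CPM, lay between the WT-CD libraries at 135 and 168. Leaving out 1 library raised the adjusted p to as much as 0.106 for Fkbp5 (without WT-CD 2) and 0.150 for Tsc22d3 (without WT-CD 1). Cardiomyocyte-like nuclei came from other clusters in each group: cluster 16 gave 46 and 23 nuclei of the WT-CD libraries, 91 and 174 nuclei of the R403Q-CD libraries, and 746 and 526 of R403Q-EMPA. Within clusters 11, 12 and 16, Fkbp5 differed between R403Q-CD and WT-CD by 1.55, 1.00 and 1.03, and between R403Q-EMPA and WT-CD by 1.52, 1.03 and 1.04.

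Other genes of the pathway were counted from lists. Of a list of 18 genes of the receptor machinery, 17 were tested in cardiomyocyte-like and fibroblast-like nuclei, and over the 10 classes 157 tests gave 20 called higher and 0 lower for R403Q-EMPA against R403Q-CD and 37 higher and 0 lower against WT-CD, with 0 for R403Q-CD against WT-CD. For these lists the share of all tests called, in either direction, was as above 0.328% against R403Q-CD, 1.39% against WT-CD and 0.013% for R403Q-CD against WT-CD. The calls for Stip1, Hspa8, Dnaja1 and Hsp90ab1 against WT-CD came in 6 classes each, for Hsp90aa1 in 5, and for Fkbp4 and Ptges3 in 4. Stip1, the co-chaperone that joins Hsp70 to Hsp90, was 20.5, 17.7, 24.2, 25.4, 67.6 and 74.0 CPM in fibroblast-like nuclei (1.89, SE 0.14, adjusted p = 0.00194 against WT-CD). Hsp90aa1 was 21.0, 24.7, 41.5, 29.8, 74.4 and 82.3 CPM in cardiomyocyte-like nuclei (1.78, SE 0.19, adjusted p = 0.00255). The list's median log2 difference from WT-CD was 0.20 in cardiomyocyte-like nuclei, where it was 0.00 over all genes, and 0.31 in fibroblast-like nuclei. Heat shock genes, a list with no gene in common with it, had 35 of 64 tests called higher against WT-CD, and the chaperone gene Hsph1 was 19.2, 15.4, 25.9, 22.0, 129 and 116 CPM over all nuclei.

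Of 26 other glucocorticoid targets, 188 tests over the classes gave 0 called for R403Q-CD against WT-CD, 1 higher for R403Q-EMPA against R403Q-CD, and 13 higher and 1 lower against WT-CD. Cdkn1a, the cell-cycle inhibitor p21, rose by 1.91 (SE 0.37, adjusted p = 0.0495) in fibroblast-like nuclei. Ddit4, an mTOR inhibitor, rose by 1.57 (SE 0.28, adjusted p = 0.0157) in cardiomyocyte-like nuclei. Ptgds, prostaglandin D synthase, was 137, 165, 516, 465, 584 and 963 CPM in cardiomyocyte-like nuclei and rose by 2.36 (SE 0.25, adjusted p = 0.00255) against WT-CD. Fbxo32, the muscle ubiquitin ligase atrogin-1, was 359, 384, 389, 290.0, 187 and 167 CPM in the same nuclei and fell by 1.07 (SE 0.19, adjusted p = 0.0155). The list's median log2 difference from WT-CD was 0.09 in cardiomyocyte-like and 0.32 in fibroblast-like nuclei, beside 0.00 over all genes in cardiomyocyte-like nuclei.

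Of 20 genes of Sgk signalling, 145 tests over the classes gave 0 called in any of the 3 comparisons, with 8, 18 and 18 unadjusted p under 0.05, where 4.29%, 9.71% and 12.7% of all tests had one. Over all nuclei, where class numbers enter the sum, 2 of 17 genes of the list were called for R403Q-EMPA against WT-CD, beside 4.6% of all genes. Of these Atp1b1, the beta subunit of the sodium pump, rose by 0.96 (SE 0.18, adjusted p = 0.0326).

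Clock genes were counted in the same way. Of 116 tests, 8 were called higher and 33 lower for R403Q-EMPA against WT-CD, 4 and 8 against R403Q-CD, and 0 for R403Q-CD against WT-CD. Their median log2 difference of R403Q-EMPA from WT-CD was below 0 in every tested class except lymphoid-like nuclei, where it was 0.41. It was -0.69 in cardiomyocyte-like nuclei and ran from -0.56 in fibroblast-like to -1.22 in smooth muscle-like nuclei. Arntl, a core activator of the clock, was 4.19, 7.80, 10.4, 9.72, 31.4 and 39.2 CPM over all nuclei, and Dbp, a clock output gene, was 36.5, 17.4, 18.4, 19.7, 8.14 and 4.05 CPM in cardiomyocyte-like nuclei. Glucocorticoid levels follow the time of day, the hour of sampling is not given in the sources used here, and the part of the clock and heat shock differences in the members' values was not tested. Immediate early genes gave Atf3 in cardiomyocyte-like nuclei at 4.71, 4.91, 25.4, 31.0, 16.2 and 11.4 CPM, which rose by 2.55 (SE 0.24, adjusted p = 0.0141) in R403Q-CD, the only call of any of the lists in that comparison.

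The genes most like a member were found by the correlation of log2 CPM over the 60 points of library and class among 2761 genes tested in every class. The points share libraries, depth and class, so the correlations are descriptions. For Nr3c2 they were Dip2c (r = 0.81), Rbpms (0.79) and Arhgap29 (0.77), and for Klf9 Cdc42bpa (0.85), Rbms1 (0.83) and Nfia (0.82). For Tsc22d3 they were Snx6 (0.67), Phf14 (0.66) and Fkbp5 (0.66), for Fkbp5 Erbin (0.69) and Osbpl9 (0.68), and for Zbtb16 Zbtb20 (0.70), Arhgef12 (0.67) and Ppp2r3a (0.66). Sgk1 was not tested in every class and has none.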

How the data were processed

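Nuclei of 6 left ventricle libraries were sequenced with a droplet 3' UMI kit. Per the submitters' processing notes, the authors used Cell Ranger 8.0.1 and GRCm39 and deposited raw UMI counts per gene and barcode, which are the values used here. Whether intronic reads were counted is not given in the sources used here. Members and gene lists were chosen with earlier results of these data known.

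Barcodes under 500 UMIs, under 300 genes or over 5% mitochondrial counts and called doublets were removed. Nuclei were clustered (scanpy 1.11.5, Leiden resolution 1) and named from marker lists. Counts were summed per library and class, filtered by filterByExpr and tested over all 6 libraries with edgeR 4.0.16 (TMM, quasi-likelihood, Benjamini-Hochberg adjustment over all genes of a class). SE is the log2 fold change over the root of F. Class differences used limma 3.58.1 (prior count 2) and DESeq2 1.42.0 was an alternative. The edgeR fit was tried on simulated counts of cardiomyocyte-like, fibroblast-like, endothelial-like and endocardial-like nuclei. A limma fit without the mean trend used here was tried on simulated normal values. DESeq2 was not tried in this way. Shares used nuclei thinned to 500 UMIs. Members were named whatever their result, with log2 differences where the unadjusted p was under 0.05, and genes of the lists by the smallest p. Depth limits small classes most, and shares cover counting error only. Some genes that the naming rule would give are not reported here.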

Additional observations from a re-analysis of the deposited data

Results flagged for a closer look

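The difference of R403Q-EMPA from WT-CD was not the same in cardiomyocyte-like and fibroblast-like nuclei for 2 members, by a limma test of the difference itself. For Fkbp5 it was larger in cardiomyocyte-like nuclei by 1.01 on the log2 scale (SE 0.17, adjusted p = 0.0295). It kept its direction without each library in turn, at 0.87 to 1.15, and was called only without R403Q-CD 1 or R403Q-CD 2. For Tsc22d3 the difference was -0.71 (SE 0.14, adjusted p = 0.0448), ran from -0.87 to -0.54 in the same way and was called only without R403Q-EMPA 1. Against endothelial-like nuclei, the Fkbp5 difference was 0.046 larger in cardiomyocyte-like nuclei (adjusted p = 0.929) and -0.96 in fibroblast-like nuclei (adjusted p = 0.0594).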

How the results depend on the processing

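The 54 member differences with an unadjusted p under 0.05 were recomputed under the alternatives of filtering, scaling, clustering and leaving out libraries, and kept their direction, except that without a mitochondrial limit, Nr3c2 in lymphoid-like nuclei for R403Q-EMPA against R403Q-CD was -0.067. Within cluster 19, an alternative chosen after seeing the data, Sgk1 for R403Q-CD against WT-CD was -0.12. The cause was not tested for either.

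Counts of member calls per class depended on the settings. The share of all tests called is given above for the main edgeR fit and for DESeq2 only. Counts under the other settings, or with a library left out, stand without that share and are not read as particular to the members. For R403Q-CD against WT-CD (0) they were 7 with no filter on low counts, 1 with no mitochondrial limit, and 0 to 5 when each library was left out in turn, the 5 without WT-CD 2. For R403Q-EMPA against R403Q-CD (0) they were 8 with no filter, 4 with DESeq2, 4 with only the 4 libraries compared, and 0 to 4 with a library left out. For R403Q-EMPA against WT-CD (1) they were 13 with no filter, 2 with doublets kept, 5 with DESeq2, 0 with only the 4 libraries compared, and 0 to 10 with a library left out, the 10 without WT-CD 2. Over all nuclei DESeq2 gave 1 for R403Q-EMPA against R403Q-CD, and leaving out a library gave 0 to 1, and 0 to 2 against WT-CD. Calls of class differences for R403Q-EMPA against WT-CD with a library left out were 0 to 1 for cardiomyocyte-like minus endothelial-like, 0 to 1 for cardiomyocyte-like minus fibroblast-like (2 with all libraries) and 0 to 2 for fibroblast-like minus endothelial-like. No replicate block was fitted, because the labels give no replicate numbers or shared sets, and the numbers used here only name libraries in accession order.

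The spread rests on 2 libraries per group. Smooth muscle-like and epicardial-like nuclei numbered 27 to 71 per library and lymphoid-like nuclei 55 to 108, and counts of Hsd11b1 and Sgk1 in cardiomyocyte-like nuclei were low, which limits the precision there.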
